A study of Mus musculus with 6 samples.

Results

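Glutathione synthesis and cystine supply were followed through 7 genes, Gclc, Gclm, Gss, Gsr, Slc7a11, Slc3a2 and Ggt1, taken by symbol from the 30438 rows of the gene count matrix. The rows were picked by symbol and not by a measured value, but the members were chosen with earlier results of these data known. All 7 had enough counts to test, among 14618 tested genes, with between 241 and 16772 counts per gene and library. The cells were HEI-OC1, a conditionally immortal mouse auditory line used as a model of hair cell toxicity, which the labels describe as a cochlear stem cell. RNA was sequenced from 3 unedited libraries (genotype WT, the control) and 3 libraries labelled Nrf2 knockout. Both groups grew in DMEM with 10% FBS and penicillin-streptomycin at 33 °C in 10% CO2, and no drug is recorded. The labels do not say how or where Nrf2 was edited, whether the knockout line is 1 clone, or whether replicates were separate cultures, so the tests weigh differences against a spread that may be technical. The stated purpose was to look for biomarkers behind a lower sensitivity of the edited cells to cisplatin, a platinum drug that damages hearing.

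Glutathione is a tripeptide of glutamate, cysteine and glycine and the main small thiol of the cell, which neutralises peroxides and binds electrophiles and platinum drugs. Its synthesis is limited by cysteine, much of which enters cultured cells as cystine, and by the first enzyme, glutamate-cysteine ligase. Several of these genes are known targets of NRF2, the transcription factor encoded by Nfe2l2, and Slc7a11 also answers to ATF4, the factor of amino acid starvation.

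The library totals lay between 29130007 and 51285343 counts. Nfe2l2 itself was higher in the libraries labelled Nrf2 KO, at 396, 236 and 204.5 CPM (counts scaled to a common library size with TMM factors, for replicates 1, 2 and 3) against 74.2, 126.5 and 96.7 in the controls. Its fold change was 1.49 on the log2 scale (SE 0.33, adjusted p = 0.0456). The transcript was thus not lower under the knockout label, and transcript counts do not show whether the protein was lost. Directions below compare libraries by their label, Nrf2 KO over control. The Nfe2l2 call was lost with upper-quartile scaling (0.0526), with library size alone (0.0593) and without any 1 of the 5 libraries other than Nrf2 KO replicate 1 (0.0784 to 0.202). Replicate 1 stood apart in both groups: 36.4% of tested genes had replicate 1 as the lowest library of each group and 35% as the highest. Among 10 markers of prosensory and supporting cells, set against the labelled cell type, Sox2 and Sox10 had 0 counts in every library and 4 were under 1 CPM throughout. Others of that list were well detected, with 158 to 257 CPM over the 6 libraries for Cdkn1b, 99.2 to 191 for Jag1 and 36.2 to 71.5 for Fgfr3. Sox9 lay at 6.7 to 9.8 CPM in the controls and at 29.6 to 48.8 CPM in the other group. The summed level of the list was 398 to 468 CPM in the controls and 395 to 547 CPM in the other group, and 1 of its genes was called higher. Of 9 hair cell markers, 7 were under 1 CPM in every library, and Atoh1, Slc26a5 and Calb2 had 0 counts. The same held for 4 of 4 epithelial, 3 of 4 endothelial and 3 of 5 macrophage markers. The summed level of the 9 hair cell markers was 33.1 to 45.2 CPM in the controls and 62.5 to 76.5 CPM in the other group, nearly all of it Myo6 and Myo7a. Myo7a lay at 1.08 to 1.455 CPM in the controls and at 15.2 to 30.0 CPM in the other group. Of the hair cell markers 1 was called higher, and of the macrophage markers 1 was called lower. Of 8 fibroblast markers 2 were under 1 CPM in every library and 4 were called higher. Their summed level ranged from 1610 to 2000 CPM in the control libraries and from 4370 to 6040 CPM in those labelled Nrf2 KO. Most of it was Col1a1 (841 to 1113 against 1927 to 2918 CPM) and Col1a2 (143 to 194 against 1240 to 1936 CPM). Pdgfra, Thy1 and Tbx18 also lay higher without overlap, as did 17.1% of all tested genes, while Lum overlapped (386 to 516 against 367 to 646 CPM). Tbx18 was at 164.5 and 173 CPM in Nrf2 KO replicates 2 and 3, near the highest control (158 CPM), and at 546 CPM in replicate 1. Over all tested genes 3.45% were called lower and 4.83% higher. The part of these markers in the results below was not tested, and in bulk RNA fewer cells of a type and less RNA per cell cannot be told apart.

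The stretches before the transcription start are shown for the 3 genes whose results differ most in kind: Gss, the 1 member called lower, Gclm, the 1 member with a positive fold change, and Slc7a11, the cystine exchanger. They are the 250 bases before the start that RefSeq annotates in the mouse genome GRCm38.p6, written 5′ to 3′ on the gene's strand. Capitals mark matches, on either strand, to TGACNNNGC, the core of the antioxidant response element that NRF2 binds, or to TGATGNAA, the core of the composite site that ATF4 binds. The 2 motifs share no matched base in these windows.
Gss, chr2:155592811-155593060, minus strand: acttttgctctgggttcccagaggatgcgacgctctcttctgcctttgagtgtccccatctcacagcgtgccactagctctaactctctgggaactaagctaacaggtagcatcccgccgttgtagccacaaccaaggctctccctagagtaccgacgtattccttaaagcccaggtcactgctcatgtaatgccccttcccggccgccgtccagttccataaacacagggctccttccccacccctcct
Gclm, chr3:122245307-122245556, plus strand: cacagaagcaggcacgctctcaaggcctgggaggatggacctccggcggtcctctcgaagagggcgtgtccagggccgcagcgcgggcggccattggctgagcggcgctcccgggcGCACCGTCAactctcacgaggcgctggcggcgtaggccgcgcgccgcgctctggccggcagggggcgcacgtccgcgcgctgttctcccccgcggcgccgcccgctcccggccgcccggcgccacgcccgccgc
Slc7a11, chr3:50443614-50443863, minus strand: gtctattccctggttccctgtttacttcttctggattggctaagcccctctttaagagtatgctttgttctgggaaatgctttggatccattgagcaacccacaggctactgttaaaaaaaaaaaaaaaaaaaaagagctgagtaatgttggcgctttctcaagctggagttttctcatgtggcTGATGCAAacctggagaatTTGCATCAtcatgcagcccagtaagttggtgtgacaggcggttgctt

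The Slc7a11 window held 2 ATF4-type matches facing each other, TGATGCAA and its reverse complement, and 0 antioxidant-type matches. Among the windows of the same length at 32851 annotated mouse starts, 3.45% held at least 1 match to TGATGNAA and 0.0396% held 2 or more. Gclm had 1 antioxidant-type match, on the strand opposite to the gene, a motif found in 10.2% of all windows. The Gss and Slc3a2 windows held neither motif. RefSeq annotates 4 starts for Ggt1, and the second and the third held 1 antioxidant-type match each. A match is a run of letters and not a measured binding site, and the windows do not reach sites farther upstream. Of the 7 members, 5 had an entry among these promoter sequences.

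Glutathione synthetase (Gss) was lower in the libraries labelled Nrf2 KO. Gclc and Ggt1 lay below control in every library but missed the threshold, and the remaining 4 members were not called. With p-values adjusted over all tested genes (Benjamini-Hochberg), the quasi-likelihood test of edgeR called 1 member lower, Gss, and 0 higher, where 3.45% of all tested genes were called lower and 4.83% higher. At an unadjusted p under 0.05 the counts were 3 and 0, where 11.6% of all tested genes were lower and 13.4% higher, shares that also stand behind the unadjusted counts of the gene lists below. DESeq2 gave 3 lower members and 0 higher ones, against 9.02% and 10.9% of all genes, limma-voom 2 and 0, against 4.12% and 5.14%, and upper-quartile scaling 2 and 0, against 4.08% and 4.31%. The counts stayed at 1 and 0 with RLE scaling (3.45% and 4.95% of all genes), library size alone (3.66% and 4.42%), no filter on low counts (1.98% and 2.85%) and a filter of mean CPM at least 1 (3.54% and 4.97%). With the replicate number as a block, Gclc and Ggt1 were called lower as well (3 lower, 0 higher), against 7.92% and 10.4% of all genes. Of the 7 genes 4 had every library labelled Nrf2 KO below every control library (Gss, Gclc, Ggt1 and Slc3a2), a pattern held by 17.1% of tested genes. The test without Nrf2 KO replicate 1 called 3 members lower and 0 higher, against 14.5% and 15.6% of all genes, and without both replicate 1 libraries 3 and 1, against 22.1% and 24%. It called 0 members without control replicate 1 (0.691% and 1.4% of all genes), 2 (0.659% and 1.37%) or 3 (0.379% and 0.925%) and without Nrf2 KO replicate 2 (0.74% and 1.79%) or 3 (0.739% and 1.82%). The median log2 fold change of the 7 was -0.31, against 0.04 over all tested genes. It was -0.18 without Nrf2 KO replicate 1, with 4 of the 7 values negative, and -0.53 and -0.55 without Nrf2 KO replicates 2 and 3.

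**Figure D1:**
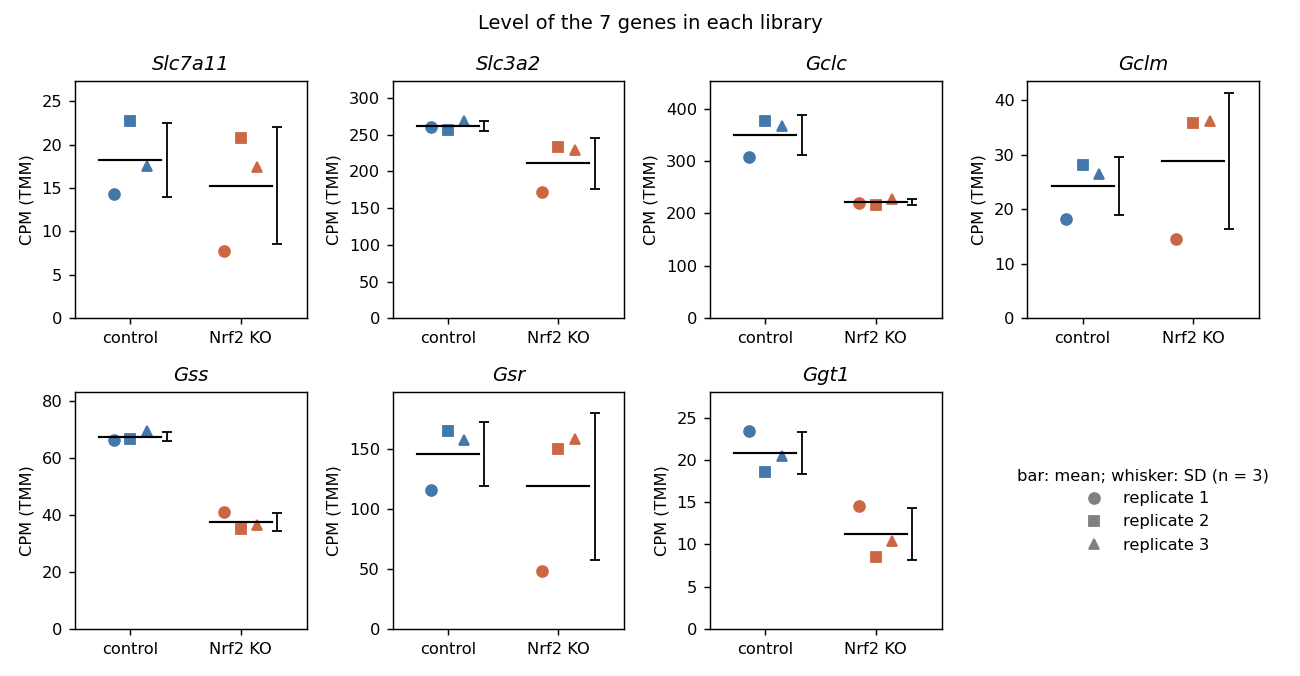
Level of each of the 7 genes in CPM with TMM scaling (y axis, from 0) in the 3 control and the 3 libraries labelled Nrf2 KO, with the replicate number as the symbol, the group mean as a bar and the SD as a whisker (n = 3). Gss, Gclc, Ggt1 and Slc3a2 show no overlap between the groups, and replicate 1 is the lowest library of both groups for Gclm, Gsr and Slc7a11.

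Neither chain of the cystine exchanger was called. Slc7a11, the light chain xCT that exchanges extracellular cystine for glutamate, was at 14.3, 22.8 and 17.5 CPM in control replicates 1, 2 and 3 and at 7.69, 20.7 and 17.4 CPM in those labelled Nrf2 KO. The groups overlapped, with replicates 2 and 3 close to their control counterparts and Nrf2 KO replicate 1 below all other libraries. Its fold change was -0.25 on the log2 scale (SE 0.39, adjusted p = 0.759). Without Nrf2 KO replicate 1 it turned to 0.06 (SE 0.21, adjusted p = 0.839), and without both replicate 1 libraries it was -0.07 (SE 0.15, adjusted p = 0.712).

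Slc3a2 encodes the heavy chain that carries xCT and several other amino acid exchangers to the cell surface. Its level was 261, 256 and 269 CPM in the controls and 171, 234 and 229 CPM in those labelled Nrf2 KO. All 3 of the latter lay below the lowest control, by little in replicates 2 and 3 and by more in replicate 1. The log2 fold change of -0.31 (SE 0.18, adjusted p = 0.351) did not pass, and it was -0.18 without Nrf2 KO replicate 1 and without both replicate 1 libraries. Within a library, Slc7a11 had 0.0549, 0.0890 and 0.0650 counts per Slc3a2 count in the controls and 0.0449, 0.0887 and 0.0761 in the other group. The mean ratio was 0.0696 ± 0.0175 against 0.0699 ± 0.0225 (SD, n = 3 each), with p = 0.9 by a two-sided exact permutation test, which cannot go below 0.1 with 3 against 3. The log2 difference, taken between the group means of the log2 ratios, was -0.02. It changed sign without control replicate 2 (0.17), without Nrf2 KO replicate 1 (0.27) and without both replicate 1 libraries (0.11). Such count ratios also hold the lengths of the 2 genes, so only their change between groups was read.

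Of the 2 subunits of glutamate-cysteine ligase, the catalytic one lay below control without overlap and the modifier did not. Gclc, which joins glutamate to cysteine, was at 307, 377 and 366 CPM in the controls and at 220.5, 216 and 227 CPM in those labelled Nrf2 KO. The 3 latter libraries lay within a narrow band, with a mean of 221 ± 5.78 against 350 ± 37.7 CPM (SD, n = 3 each). This log2 fold change of -0.66 (SE 0.16) had an adjusted p of 0.0576 by edgeR, which missed the threshold. With the replicate block the adjusted p was 0.0352 at the same fold change, and without both replicate 1 libraries it was 0.000385 (log2 fold change -0.74, SE 0.08). Without Nrf2 KO replicate 1 it was 0.0155, and without any 1 of the other 5 libraries it lay between 0.122 and 0.276.

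Gclm encodes the modifier subunit, which raises the affinity of the catalytic subunit for glutamate and eases its inhibition by glutathione. It was at 18.2, 28.1 and 26.5 CPM in the controls and at 14.5, 35.8 and 36.3 CPM in those labelled Nrf2 KO. The groups overlapped, because Nrf2 KO replicate 1 was the lowest of all 6 libraries and replicates 2 and 3 were the highest. Its fold change was 0.25 on the log2 scale (SE 0.38, adjusted p = 0.757). Without both replicate 1 libraries Gclm was called higher (0.40, SE 0.09, adjusted p = 0.00769). Without Nrf2 KO replicate 1 alone it was not called (0.56, SE 0.19, adjusted p = 0.0662).

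The ratio of Gclm to Gclc counts was compared within each library. It was 0.0594, 0.0746 and 0.0725 in control replicates 1, 2 and 3 and 0.0657, 0.166 and 0.160 in the libraries labelled Nrf2 KO. Nrf2 KO replicate 1 fell among the controls, and replicates 2 and 3 lay above every control. The mean went from 0.0688 ± 0.00822 to 0.130 ± 0.0561 (SD, n = 3 each). The log2 difference, taken between the group means of the log2 ratios, was 0.81 (two-sided exact permutation p = 0.3, adjusted p = 0.45 over the 3 ratios tested). Leaving out 1 library at a time gave log2 differences between 0.58 and 1.25. Scaling between libraries does not enter this ratio.

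**Figure D2:**
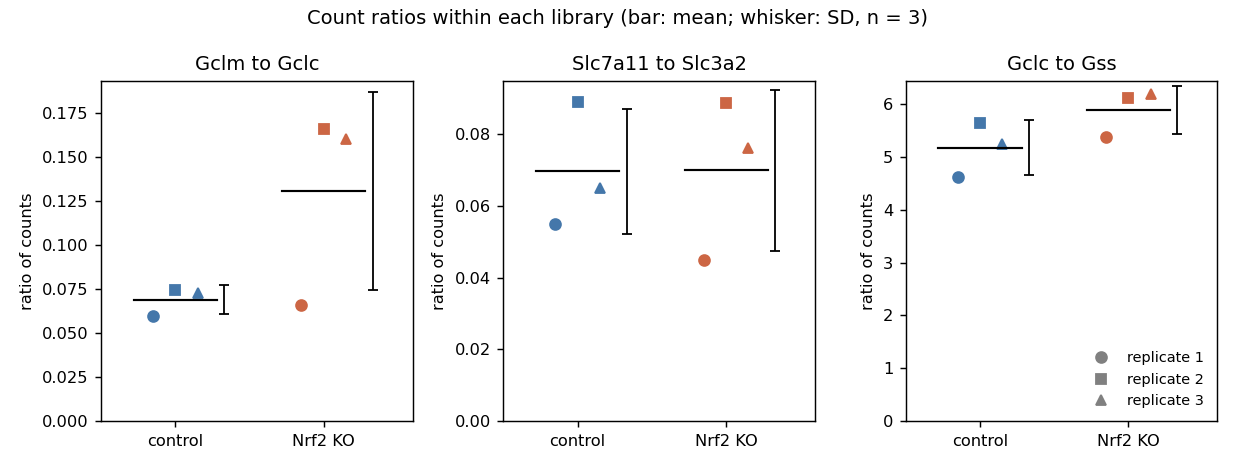
Ratio of the counts of 2 genes within each library (y axis, from 0) for the 2 ligase subunits, the 2 chains of the cystine exchanger and the 2 successive enzymes of synthesis, with the group mean as a bar and the SD as a whisker (n = 3). The Gclm to Gclc ratio is 0.166 and 0.160 in Nrf2 KO replicates 2 and 3 and at most 0.0746 in the controls, while the Slc7a11 to Slc3a2 ratios of the 2 groups overlap.

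Gss, glutathione synthetase, adds glycine in the second and last step, and it was the 1 member called lower. Its level was 66.5, 66.8 and 69.5 CPM in the controls and 41.0, 35.2 and 36.7 CPM in those labelled Nrf2 KO. The spread within each group was small beside the gap, and the means were 67.6 ± 1.64 and 37.6 ± 3.01 CPM (SD, n = 3 each). Gss fell by 0.85 on the log2 scale (SE 0.13, adjusted p = 0.0156), to 0.556 of the control level. Within replicate numbers 1, 2 and 3 the level was 0.616, 0.527 and 0.528 of that of the control library. The log2 fold change stayed between -0.92 and -0.80 when 1 library was left out, and only the fit without Nrf2 KO replicate 1 kept the call (adjusted p = 0.00164). The others gave 0.0797, 0.0839 and 0.119 without control replicates 1, 2 and 3, and 0.0827 and 0.0811 without Nrf2 KO replicates 2 and 3.

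The counts of Gclc and Gss, the 2 successive enzymes, were also set against each other. Gclc had 4.62, 5.65 and 5.26 counts per Gss count in the controls and 5.38, 6.13 and 6.20 in the libraries labelled Nrf2 KO. These ranges overlapped, with means of 5.18 ± 0.521 and 5.90 ± 0.456 (SD, n = 3 each) and a difference of 0.19 between the group means of the log2 ratios. The ratio was higher in the library labelled Nrf2 KO in 3 of 3 pairs of the same number. The two-sided exact permutation p was 0.2 (adjusted p = 0.45), and within replicate numbers the two-sided exact sign-flip p was 0.25, the smallest that 3 pairs allow, so neither test could reach 0.05.

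Gsr, glutathione reductase, returns oxidised glutathione to its thiol form with NADPH. Its level was 116, 165 and 158 CPM in the controls and 48.4, 150 and 158 CPM in those labelled Nrf2 KO. Replicates 2 and 3 lay within the control range, and Nrf2 KO replicate 1 was at 0.314 of the mean of the other 2 in its group. Control replicate 1 was also the lowest of its group, at 0.717 of the mean of control replicates 2 and 3. Its fold change was -0.30 on the log2 scale (SE 0.45, adjusted p = 0.751) with all libraries and 0.07 (SE 0.17, adjusted p = 0.757) without Nrf2 KO replicate 1. Without both replicate 1 libraries it was -0.06 (SE 0.08, adjusted p = 0.56).

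Ggt1, gamma-glutamyltransferase 1, is a membrane enzyme that opens glutathione outside the cell so that its amino acids can be taken up again. It was at 23.4, 18.5 and 20.5 CPM in the controls and at 14.6, 8.55 and 10.45 CPM in those labelled Nrf2 KO. The groups did not overlap, and in contrast to Gclm, Gsr and Slc7a11 replicate 1 was the highest library of both. The mean went from 20.8 ± 2.44 to 11.2 ± 3.07 CPM (SD, n = 3 each), with a log2 fold change of -0.90 (SE 0.24, adjusted p = 0.0754). With the replicate block Ggt1 was called lower (log2 fold change -0.92, SE 0.15, adjusted p = 0.0198). Without Nrf2 KO replicate 1 the adjusted p was 0.00495 (-1.14, SE 0.17), and without any 1 of the other 5 libraries it was between 0.172 and 0.256.

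**Figure D3:**
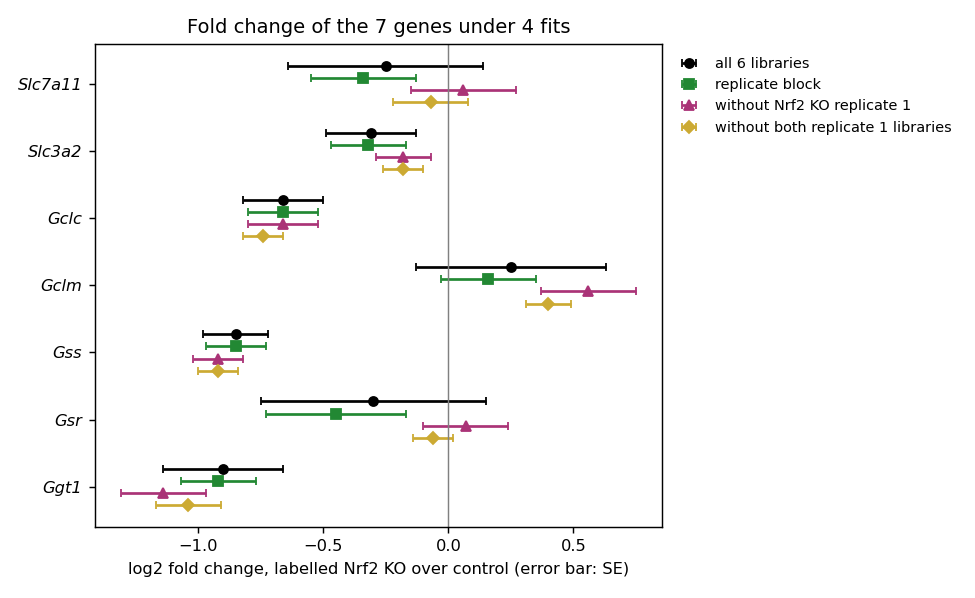
Log2 fold change of each of the 7 genes (x axis, libraries labelled Nrf2 KO over control, with the SE as error bar) in 4 fits, namely of all 6 libraries, of all with the block, of those left without Nrf2 KO replicate 1 and of replicates 2 and 3 alone. Gclc, Gss and Ggt1 lie at -0.66 or lower in all 4 fits, while Gsr and Slc7a11 are at 0.07 and 0.06 without Nrf2 KO replicate 1 and at -0.06 and -0.07 from replicates 2 and 3 alone.

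The members also differed in how they followed the replicate number. Gclm, Gsr and Slc7a11, 3 of the 7, had replicate 1 as the lowest library of both groups, against 36.4% of tested genes, and Ggt1 alone had it as the highest, against 35%. In the group labelled Nrf2 KO, replicate 1 was at 0.402 of the mean of replicates 2 and 3 for Gclm, 0.404 for Slc7a11 and 0.742 for Slc3a2. For Gclc it was at 0.995 and for Gss at 1.14. The coefficient of variation of that group was therefore 43.1%, 51.5% and 44.3% for Gclm, Gsr and Slc7a11, but 2.61% for Gclc and 8.0% for Gss. What set replicate 1 apart was not tested.

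Levels can be set between genes only per length, and there the heavy chain and the catalytic subunit led. The authors' deposited table gave Slc3a2 116, Gclc 94.5, Gsr 65.2, Gss 29.6, Gclm 13.4, Ggt1 11.1 and Slc7a11 1.70 as the control group's FPKM (fragments scaled by gene length and library size). For the group labelled Nrf2 KO that table gave 92.2, 59.1, 51.9, 16.3, 15.6, 5.93 and 1.40 in the same order. Dividing the counts by the lengths that these FPKM imply gave a value per library in CPM per kilobase, here without TMM factors. In the controls Slc3a2 (114 to 118) lay above Gclc (83.7 to 102) without overlap, and Gclc above Gsr (52.4 to 74.3). Gclm (10.2 to 15.7) and Ggt1 (9.85 to 12.5) overlapped and could not be ordered. In the libraries labelled Nrf2 KO, Gclc (55.5 to 63.7) overlapped Gsr (23.2 to 67.2), Gss (14.7 to 19.2) overlapped Gclm (8.61 to 19.1), and Ggt1 (4.32 to 8.26) lay below Gclm. The implied length of Slc7a11 was 10.8 kb, against 1.80 to 3.72 kb for the other 6, so its per-length level was read over the longest of the 7 gene models.

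**Figure D4:**
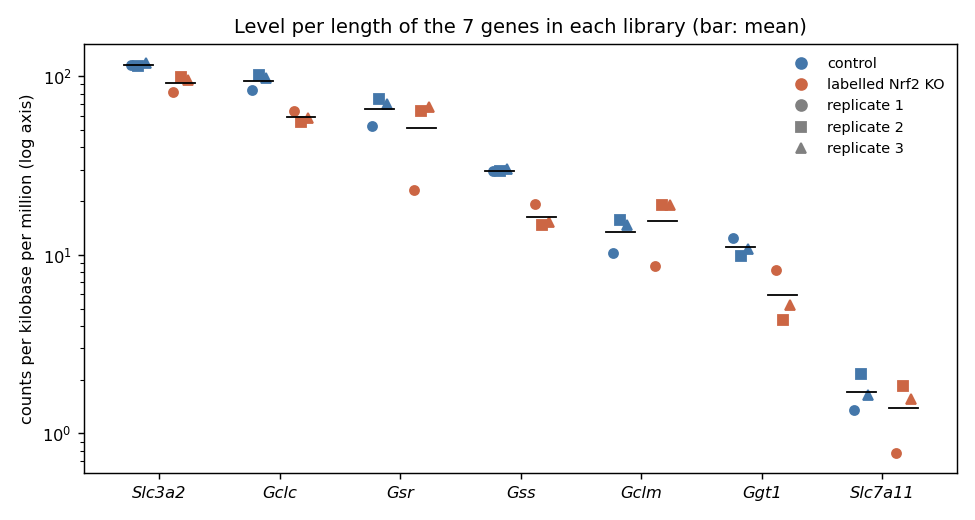
CPM per kilobase, without TMM factors, (y axis, log scale) of the 7 genes in each library, ordered by the control mean, with the group mean as a bar and the replicate number as the symbol. The order runs from Slc3a2 (116 in the controls) to Slc7a11 (1.71), and the 2 groups are apart for Gss, Gclc, Slc3a2 and Ggt1.

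The genes most like Gclc over the 6 libraries, by Pearson's r of log2 CPM, were Prrg1 (0.998), Hist1h2bh (0.998) and Aggf1 (0.996). Those most like Slc7a11 were Kif3a (0.999), Zbtb26 (0.998) and E2f3 (0.997). They were the highest of 9594 genes searched, and all 6 libraries share the group and replicate differences, so these values describe likeness in these libraries and carry no test.

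Around the members, 73 other genes of supply, breakdown, use, transport and control were listed, and 67 of them were tested. Among those, 6 were called lower and 4 higher by edgeR, against 3.45% and 4.83% of all genes, and with the replicate block 11 and 6, against 7.92% and 10.4%. Their median log2 fold change was -0.23. The counts rested on the libraries used: 23 and 11 without Nrf2 KO replicate 1, where 14.5% and 15.6% of all genes were called. Without any 1 of the other 5 libraries 1 to 3 were lower and 0 higher, against 0.379% to 0.74% and 0.925% to 1.82% of all genes.

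The smallest adjusted p among these genes was in the making of cysteine. Of 6 tested genes of the methionine cycle and transsulfuration, 2 were called lower and 0 higher (the same counts at an unadjusted p under 0.05), with a median of -0.48. Of all genes 3.45% were called lower and 4.83% higher. Cbs, cystathionine beta-synthase, which commits homocysteine to cysteine, was at 10.2, 9.27 and 10.0 CPM in the controls and at 1.76, 1.02 and 1.02 CPM in those labelled Nrf2 KO. The groups were far apart, and Cbs fell by 2.96 on the log2 scale (SE 0.29, adjusted p = 0.0038), a call kept in all 6 fits that left out 1 library. Mtr, methionine synthase, which returns homocysteine to methionine, fell by 0.73 (SE 0.16, adjusted p = 0.0464). Its call was lost without a filter on low counts (0.0679) and without any 1 of the 5 libraries other than Nrf2 KO replicate 1 (0.0958 to 0.215). Cth, the enzyme after Cbs that releases cysteine, was at 5.75 ± 1.07 and 4.79 ± 1.54 CPM (adjusted p = 0.66).

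Supply of the other 2 amino acids of glutathione gave 1 call in each direction, both of them transporters. Of 11 tested genes of glutamate and glycine supply, 1 was called lower and 1 higher, against 3.45% and 4.83% of all genes (3 and 2 at an unadjusted p under 0.05). With the replicate block the counts were 3 and 1, against 7.92% and 10.4%. Slc6a9, the glycine transporter GlyT1, was at 52.7, 51.6 and 47.9 CPM in the controls and at 26.5, 25.15 and 23.5 CPM in those labelled Nrf2 KO, about as even within groups as Gss. It fell by 1.02 on the log2 scale (SE 0.14, adjusted p = 0.00931). Slc1a3, a glutamate and aspartate importer, was at 0.664, 1.89 and 1.88 CPM in the controls and at 6.96, 27.6 and 23.7 CPM in those labelled Nrf2 KO. It rose by 3.71 on the log2 scale (SE 0.67, adjusted p = 0.0247), with replicate 1 the lowest of both groups. Both calls were lost without any 1 of the 5 libraries other than Nrf2 KO replicate 1, with adjusted p from 0.0546 to 0.0726 for Slc6a9 and from 0.0764 to 0.118 for Slc1a3. Among 7 tested carriers of cystine, cysteine or partners of Slc3a2, edgeR called 1 higher and 0 lower, against 4.83% and 3.45% of all genes (1 and 0 at an unadjusted p under 0.05). This was Slc7a8, a Slc3a2 partner for neutral amino acids, with 3, 0 and 2 counts in the controls and 12, 34 and 28 in the libraries labelled Nrf2 KO (adjusted p = 0.0309, and 0.0717 to 0.162 without any 1 of the 5 libraries other than Nrf2 KO replicate 1). Slc7a8 passed the filter on low counts only through the group where it was high, so its call carries little weight. With a filter of mean CPM at least 1 it was not tested, and 0 of 5 tested carriers were called.

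Breakdown genes beyond Ggt1 gave 1 call. Of 11 tested, 1 was called lower and 0 higher, against 3.45% and 4.83% of all genes (3 and 2 at an unadjusted p under 0.05). With the replicate block the counts were 3 and 1, against 7.92% and 10.4%. The median was -0.08, between -0.31 and 0.01 when 1 library was left out. Anpep, an aminopeptidase that splits the dipeptide left by Ggt1, was at 5.54, 7.02 and 7.58 CPM in the controls and at 1.63, 1.95 and 1.41 CPM in those labelled Nrf2 KO. It fell by 2.01 on the log2 scale (SE 0.25, adjusted p = 0.00757), a call lost without control replicate 2 (0.0501) or 3 (0.063). The relatives of Ggt1 had negative values that did not pass, -1.10 (SE 0.35) for Ggt5 and -0.57 (SE 0.22) for Ggt7, while the block called both lower (adjusted p = 0.0371 and 0.0441). Ggct, which acts on gamma-glutamyl dipeptides inside the cell, had 6.68 ± 1.25 against 14.1 ± 5.46 CPM (adjusted p = 0.0956, and 0.0209 with the block, where it was the 1 higher call). Ggt5, Ggt7 and Ggct were named after their values were seen.

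**Figure D5:**
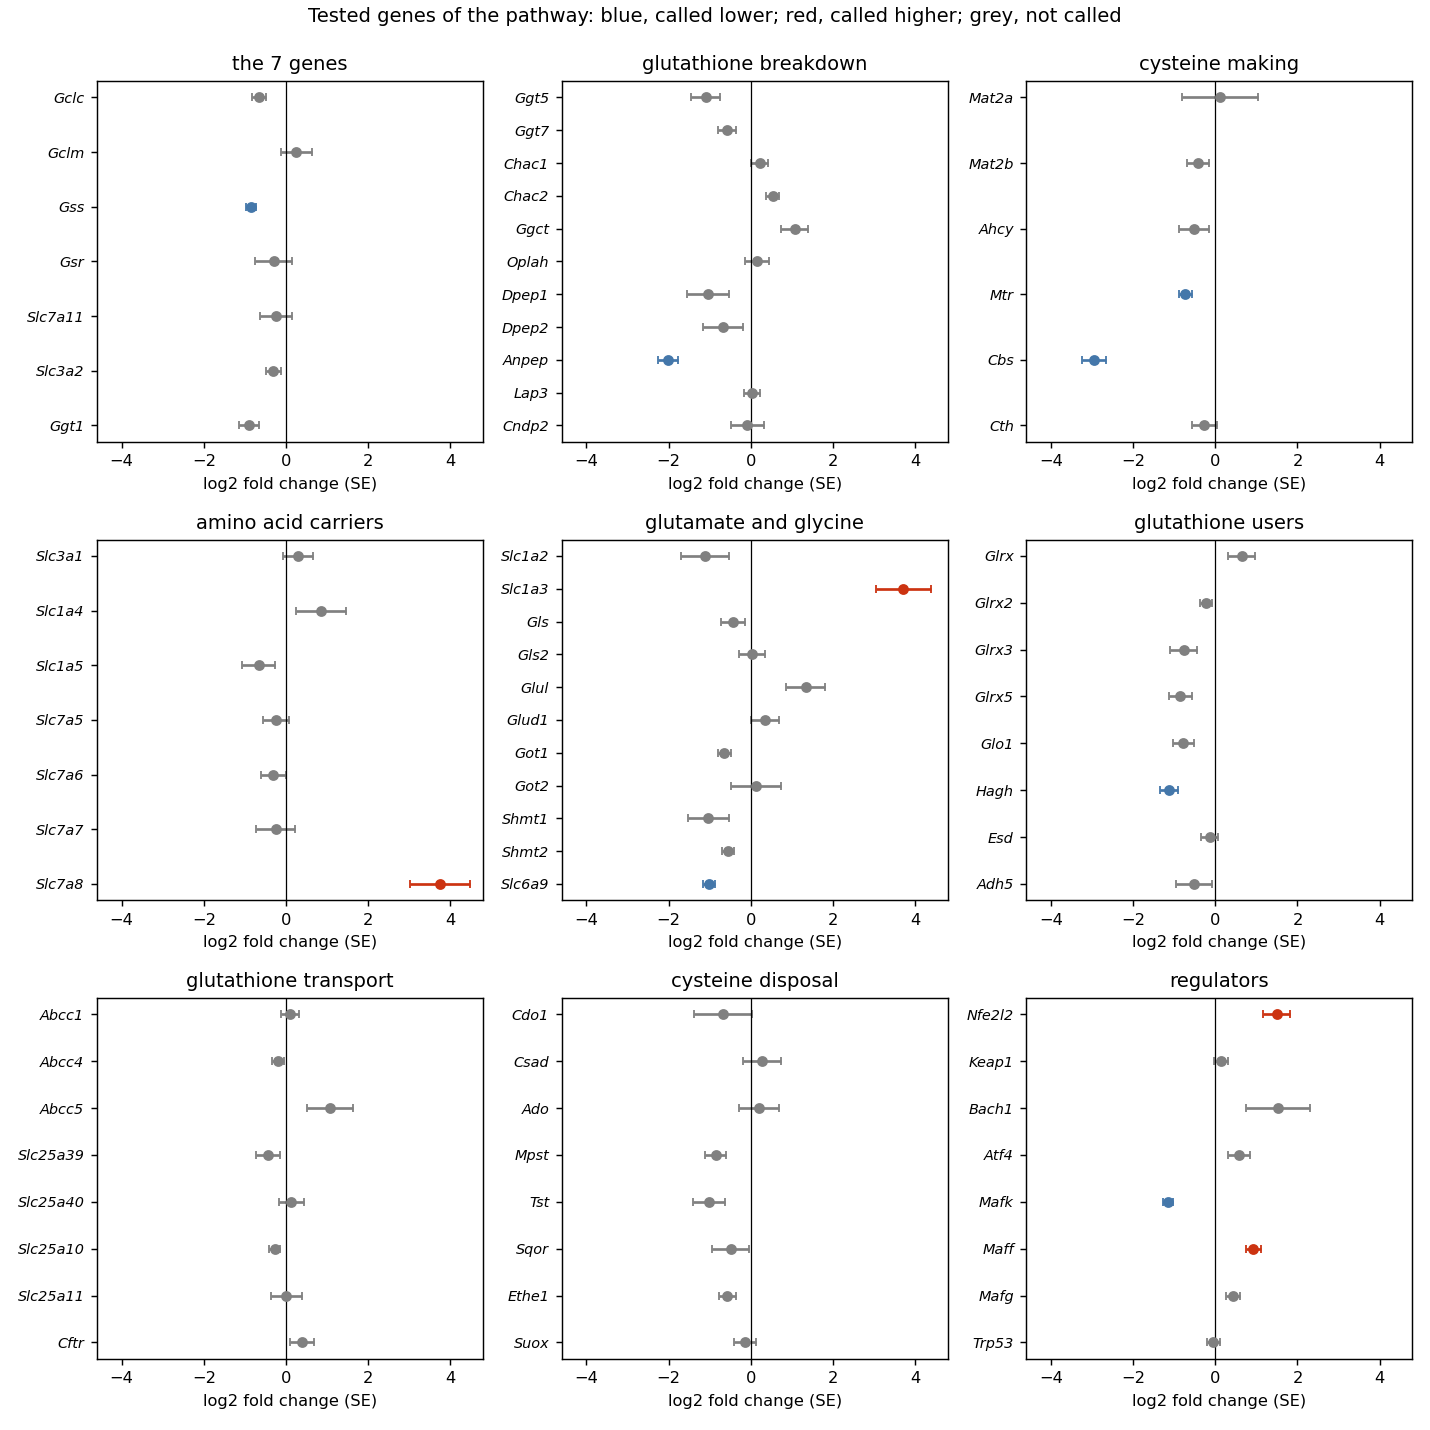
Log2 fold change with its SE (x axis, libraries labelled Nrf2 KO over control) of the 7 genes and of the tested genes of 8 surrounding lists, in blue where called lower, red where called higher and grey where not called by edgeR. Cbs (-2.96) and Anpep (-2.01) lie farthest to the left and Slc1a3 (3.71) and Slc7a8 far to the right, and most genes are grey. Slc7a8 passed the filter on low counts only through the libraries labelled Nrf2 KO.

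Of 8 tested regulators, a list that holds Nfe2l2, edgeR called 2 higher and 1 lower, against 4.83% and 3.45% of all genes. The fit with the replicate block called 3 and 1, against 10.4% and 7.92%. Besides Nfe2l2, Maff rose by 0.92 on the log2 scale (SE 0.18, adjusted p = 0.0287) and Mafk fell by 1.15 (SE 0.13, adjusted p = 0.00565); both are small MAF proteins that pair with NRF2 on DNA. The call of Maff was lost without any 1 of the 5 libraries other than Nrf2 KO replicate 1 (0.0866 to 0.17), and that of Mafk without control replicate 3 (0.0611). Keap1, which marks NRF2 for degradation, was at 35.2 ± 2.84 and 38.6 ± 5.71 CPM (adjusted p = 0.687). Atf4 was at 492.5, 356 and 401 CPM in the controls and at 835, 495 and 542 CPM in those labelled Nrf2 KO, without overlap and without a call (log2 fold change 0.58, SE 0.27, adjusted p = 0.242). Of all tested genes, 17.1% had every library labelled Nrf2 KO above every control library. The Atf4 log2 fold change was 0.31 without Nrf2 KO replicate 1. Without both replicate 1 libraries Atf4 was called higher (0.46, SE 0.10, adjusted p = 0.00759), in a fit that called 24% of all genes higher.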

How the data were processed

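The submitters' processing notes name fastp, FastQC, HISAT2 and DESeq2 1.34.0, without their roles, and the human build hg18. The counter, strand setting and annotation behind the counts are not stated, so antisense and overlapping genes cannot be separated. In the deposited table each count is a whole number for 1 gene symbol, and 0 columns belonged to other samples. Symbols follow rat usage (650 begin with RGD, 0 with H2-), although the labels give mouse cells; what this does to the values was not tested. The authors' deposited FPKM are 1 value per group, and the lengths they imply in the 2 groups differed by at most 1.55% for the 7 members.

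Testing of the counts used edgeR 4.0.16 (R 4.3.3; filterByExpr with minimum count 10 and total 15, TMM, robust quasi-likelihood fit with group as the only term, two-sided), with p adjusted over 14618 genes at a threshold of 0.05. The scripts were tested on simulated data. A missed threshold does not show an equal level. DESeq2 1.42.0, limma-voom (limma 3.58.1), other scalings and filters, a replicate block and fits without libraries were alternatives. Likeness used log2 CPM with a prior count of 2 and a mean CPM of at least 5. Samples were grouped by title. Between 2 libraries of a group the chi-square per degree of freedom was at least 12.2, so none was a duplicate. Deviations from the group mean correlated at 0.754, 0.696 and 0.310 between libraries of the same number, above the limit of 0.1 set for pairing. The main test still used group alone, and pairing by number entered only through the replicate block and the differences within replicate numbers. Such pairing rests on the counts and not on the labels, and Nrf2 KO replicate 3 was closest to control replicate 2 (0.539). The members, lists and alternatives were chosen with earlier results of these data known. Named were the 7 members, Nfe2l2, Keap1, Atf4, up to 4 called genes of each list by p (or, without any call, its 2 genes of highest mean CPM), and the 3 genes most like Gclc and Slc7a11. Cth, Ggt5, Ggt7, Ggct and Glo1 were named beside them after their values were seen. Of the listed genes, 2 were matched by another name of the gene.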

Additional observations from a re-analysis of the deposited data

How the results depend on the processing

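Across 15 alternatives, Slc3a2 was not called in any, and Gclc, Gss and Ggt1 kept a negative fold change in all. Gclc was called lower with upper-quartile scaling (log2 fold change -0.72), DESeq2 (-0.66), limma-voom (-0.66), the replicate block (-0.66) and without both replicate 1 libraries (-0.74). Ggt1 was called lower with DESeq2 (-0.89), the replicate block (-0.92) and without both replicate 1 libraries (-1.04), and Gclm was called higher in that last fit (0.40). With 1 library left out, log2 fold changes ranged from -0.75 to -0.60 for Gclc, -0.92 to -0.80 for Gss, -1.14 to -0.74 for Ggt1, 0.05 to 0.56 for Gclm, -0.55 to 0.07 for Gsr, -0.39 to -0.18 for Slc3a2 and -0.53 to 0.06 for Slc7a11. The positive ends for Gsr and Slc7a11 came without Nrf2 KO replicate 1, while both were negative without both replicate 1 libraries. The Slc7a11 to Slc3a2 log2 ratio difference ranged from -0.22 to 0.27 and was 0.11 without both replicate 1 libraries.

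The number of members called lower was 2 with upper-quartile scaling or limma-voom, 3 with DESeq2, the replicate block or without both replicate 1 libraries, and 0 to 3 with 1 library left out. Members called higher numbered 1 without both replicate 1 libraries. Of the 67 listed genes, 12 were lower and 7 higher by DESeq2 (9.02% and 10.9% of all genes), and 11 were lower with the replicate block (7.92%). Without both replicate 1 libraries 28 were lower and 14 higher of 68 tested, where 22.1% and 24% of all genes were called. With 1 library left out, 1 to 23 were lower (0.379% to 14.5% of all genes) and 0 to 11 higher (0.925% to 15.6%). The cause of these shifts was not tested. The replicate block changed no other call among the members. For the ratios, differences within replicate numbers have the same means (0.81, -0.02 and 0.19) by arithmetic, so they are no separate check of these values. Csad turned to -0.41 without Nrf2 KO replicate 1 and to -0.19 without both replicate 1 libraries. Each member had at least 241 counts in every library, and how far depth limits these comparisons was not tested.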

Other observations

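Of 8 tested glutaredoxins and other enzymes that use glutathione, edgeR called 1 lower and 0 higher, against 3.45% and 4.83% of all genes. At an unadjusted p under 0.05 the counts were 3 and 0. DESeq2 gave 3 and 0 (9.02% and 10.9% of all genes), limma-voom 1 and 0 (4.12% and 5.14%) and the replicate block 2 and 0 (7.92% and 10.4%). In the edgeR fit 7 of the 8 values were negative, with a median log2 fold change of -0.64. The median was -0.37 without Nrf2 KO replicate 1, with 6 of the 8 negative. In that fit 4 were called lower and 1 higher, against 14.5% and 15.6% of all genes. Hagh, the glyoxalase that frees glutathione from its lactoyl conjugate, was at 13.9, 10.5 and 11.8 CPM in the controls and at 4.53, 5.72 and 6.25 CPM in those labelled Nrf2 KO. It fell by 1.13 on the log2 scale (SE 0.22, adjusted p = 0.0278), a call lost without any 1 of the 5 libraries other than Nrf2 KO replicate 1 (0.0859 to 0.151). Glo1, the enzyme before it, was at 131 ± 9.98 and 76.2 ± 22.6 CPM (adjusted p = 0.117, and 0.0365 with the block).

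Of 8 tested genes of glutathione export and mitochondrial import, edgeR, DESeq2 and limma-voom called 0 (by edgeR also 0 at an unadjusted p under 0.05), and their median was 0.06, between -0.15 and 0.22 when 1 library was left out. Slc25a39, which carries glutathione into mitochondria, was at 203 ± 30.7 and 150 ± 51.3 CPM, and the exporter family member Abcc5 at 76.4 ± 22.9 and 161 ± 125 CPM. Without Nrf2 KO replicate 1 the log2 fold change of Slc25a39 went from -0.44 to -0.18 and that of Abcc5 from 1.07 to 0.21. Without both replicate 1 libraries Slc25a39 was called lower (-0.30, adjusted p = 0.0183) and Abcc5 higher (0.48, adjusted p = 0.00677), where 22.1% and 24% of all genes were called. In the libraries labelled Nrf2 KO Abcc5 reached 305 CPM in replicate 1 and 88.3 and 89.1 CPM in replicates 2 and 3. Of 8 tested genes of cysteine and sulfide catabolism edgeR called 0 (3 lower and 0 higher at an unadjusted p under 0.05), limma-voom 0 and DESeq2 1 lower (9.02% of all genes), with a median of -0.53. Csad, which makes hypotaurine, was at 32.4 ± 7.52 and 39.1 ± 25.5 CPM, and the sulfide oxidoreductase Sqrdl at 35.3 ± 5.53 and 25.2 ± 13.2 CPM. The log2 fold change of Sqrdl was -0.48 with all libraries, -0.11 without Nrf2 KO replicate 1 and -0.23 without both replicate 1 libraries.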
